A study of Mus musculus with 8 samples.

Results

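The expression of 7 genes that mark neurons of the thalamus was followed in the adult brain after prenatal ethanol: Tcf7l2, Lef1, Gbx2, Prkcd, Rgs16, Ntng1 and Slc17a6. A probe set was used when its annotation named 1 symbol and that symbol was one of these genes, and where a gene had several the one with the highest mean over all arrays was kept. All 7 genes were found, out of 19938 genes with such a probe set. Ntng1 had 2 probe sets and the other 6 genes had 1 each.

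Affymetrix Mouse Gene 1.0 ST arrays were run on whole brain of male C57BL/6J mice at postnatal day 70. In the early exposure groups, the dams had been injected with ethanol (a pair of 2.5 g/kg doses on each day) or with saline on gestational days 8 and 11. In the late exposure groups, ethanol or saline was given in the same way on days 14 and 16. Every one of the 4 groups had 2 arrays, with RNA of 3 males from different litters combined on each, so the spread between arrays is a spread between pools and not between animals. All values are log2 expression (RMA) and all differences are ethanol minus saline on the log2 scale. Levels were compared only within a timing, since array medians lay at 6.74 to 6.84 with early exposure but at 7.21 to 7.30 with late exposure. The tissue was the whole brain, in which the thalamus is one region among many, and in such bulk RNA fewer cells of a type and less RNA per cell cannot be told apart.

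The thalamus relays sensory and motor signals to the cortex through glutamatergic projection neurons. Its identity is set in the embryo by Wnt and other signals and by transcription factors, among which Gbx2 acts early and Tcf7l2 acts in postmitotic neurons of the thalamus and the neighbouring habenula. TCF/LEF factors such as Tcf7l2 and Lef1 bind a short DNA motif and activate transcription together with β-catenin, the effector of canonical Wnt signalling. Several of these genes are also used elsewhere in the brain. Tcf7l2 is expressed in the oligodendrocyte lineage, Lef1 in brain endothelium, Prkcd in cerebellar Purkinje cells and the central amygdala, and Slc17a6 in glutamatergic neurons of the hypothalamus, midbrain and hindbrain.

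Since 2 of the genes encode TCF/LEF factors, the promoters were searched for the 4 heptamers that begin with CTTTG and go on with AA, AT, TA or TT, on both strands, in windows from 250 bases before to 50 bases after each RefSeq start site (GRCm38.p6). Of 13 windows of the 7 genes, 3 (23.1%) held a match, against 16.9% of all 32851 windows. The matches are shown with up to 20 bases on each side, in the direction of the gene, with the heptamer in capitals; those of Lef1 and Prkcd lie on the opposite strand and read as the reverse complement. In Tcf7l2 the match began 14 bases before the start site (chr19:55895287-55895333, plus strand), in Lef1 147 bases before it (chr3:131156127-131156173, plus strand) and in Prkcd 242 bases before it (chr14:30610526-30610560, minus strand).
Tcf7l2: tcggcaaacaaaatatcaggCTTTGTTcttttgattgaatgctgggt
Lef1: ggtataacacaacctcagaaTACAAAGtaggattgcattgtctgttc
Prkcd: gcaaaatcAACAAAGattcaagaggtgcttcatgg
These are matches of letters only, and the arrays did not measure binding.

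Before the exposures were compared, each gene was set against background, taken as the 95th percentile of 1212 probe sets for odorant and pheromone receptors, few of which are transcribed in brain tissue. This percentile was 6.48 for the means of the early arrays and 7.46 for those of the late arrays. Tcf7l2, Prkcd, Rgs16, Ntng1 and Slc17a6 lay above it in all 8 arrays. Lef1 was above it in 3 of 4 early arrays and 1 of 4 late arrays, and Gbx2 in 0 of 8. Values of Gbx2, and of Lef1 in the late arrays, are therefore at background and their differences say little about the transcript.

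The first comparison asked whether ethanol on days 8 and 11 left a difference in these genes in the adult. No member passed the test of ethanol against saline by limma (adjusted p = 1 for all 7). The difference was positive for 4 genes and negative for 3, with a median of 0.0042, against a median of -0.020 over all 23410 probe sets tested, 59.8% of which were lower after ethanol. The differences lay between -0.12 and 0.09, and the smallest unadjusted p was 0.311, for Gbx2. None passed the study's own thresholds (1.2-fold, with p under 0.05 before adjustment), which 0.923% of all probe sets passed, and none had an unadjusted p under 0.05, as 1.71% did. The 2 groups overlapped for 6 of 7 genes, so that 1 of 7 was without overlap, against 26.4% of all probe sets. The ethanol difference exceeded the larger of the gene's replicate gaps for 1 of 7, against 16.0% of all probe sets.

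Among the transcription factors, Tcf7l2 had the most variable early values. It read 9.62 and 9.21 in the ethanol arrays, against 9.29 and 9.35 in the saline arrays. The ethanol arrays lay on either side of both saline arrays, and the difference of 0.09 (SE 0.13, 95% confidence interval -0.20 to 0.39) was far smaller than the 0.41 between the ethanol replicates. Without the second ethanol array the difference was 0.30, the only setting in which an early value passed the study's thresholds, and without the first it was -0.11. Lef1 read 6.65 and 6.53 after ethanol and 6.64 and 6.40 after saline, a difference of 0.07 (SE 0.10, interval -0.16 to 0.30) with overlapping groups. Gbx2, at background, read 5.62 and 5.54 after ethanol and 5.60 and 5.76 after saline, a difference of -0.098 (interval -0.31 to 0.11).

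The signalling genes also gave overlapping groups. Prkcd, which encodes protein kinase C delta, read 8.84 and 8.74 after early ethanol and 8.84 and 8.68 after saline. Its difference of 0.03 (SE 0.099) had an interval of -0.20 to 0.26, which lies inside 1.2-fold in either direction. Rgs16, a GTPase-activating protein that shortens signalling by G protein-coupled receptors, read 9.28 and 9.03 after ethanol and 9.37 and 9.18 after saline. In each group the second array was the lower one, and the difference was -0.12 (SE 0.12, interval -0.39 to 0.15).

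The remaining genes act at the synapse. Ntng1, whose product netrin-G1 is a membrane-anchored ligand on thalamocortical axons, read 9.64 in both ethanol arrays, against 9.78 and 9.69 in the saline arrays. It was the only early member in which every ethanol array lay below every saline array, as did 18.9% of all probe sets, and the difference of -0.092 only just exceeded the gap of 0.0917 between the saline arrays (SE 0.096, interval -0.31 to 0.13, unadjusted p = 0.364). The second Ntng1 probe set, nearer to background, averaged 6.45 ± 0.059 after ethanol and 6.61 ± 0.016 after saline (SD, n = 2 each), again without overlap. Slc17a6 encodes VGLUT2, the vesicular glutamate transporter that thalamic relay neurons use. It read 9.52 and 9.41 after ethanol and 9.57 and 9.35 after saline, with the ethanol pair between the saline values, and its difference of 0.0042 (SE 0.11, interval -0.25 to 0.26) had the smallest size of the 7 and, like that of Prkcd, an interval inside 1.2-fold.

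**Figure D1:**
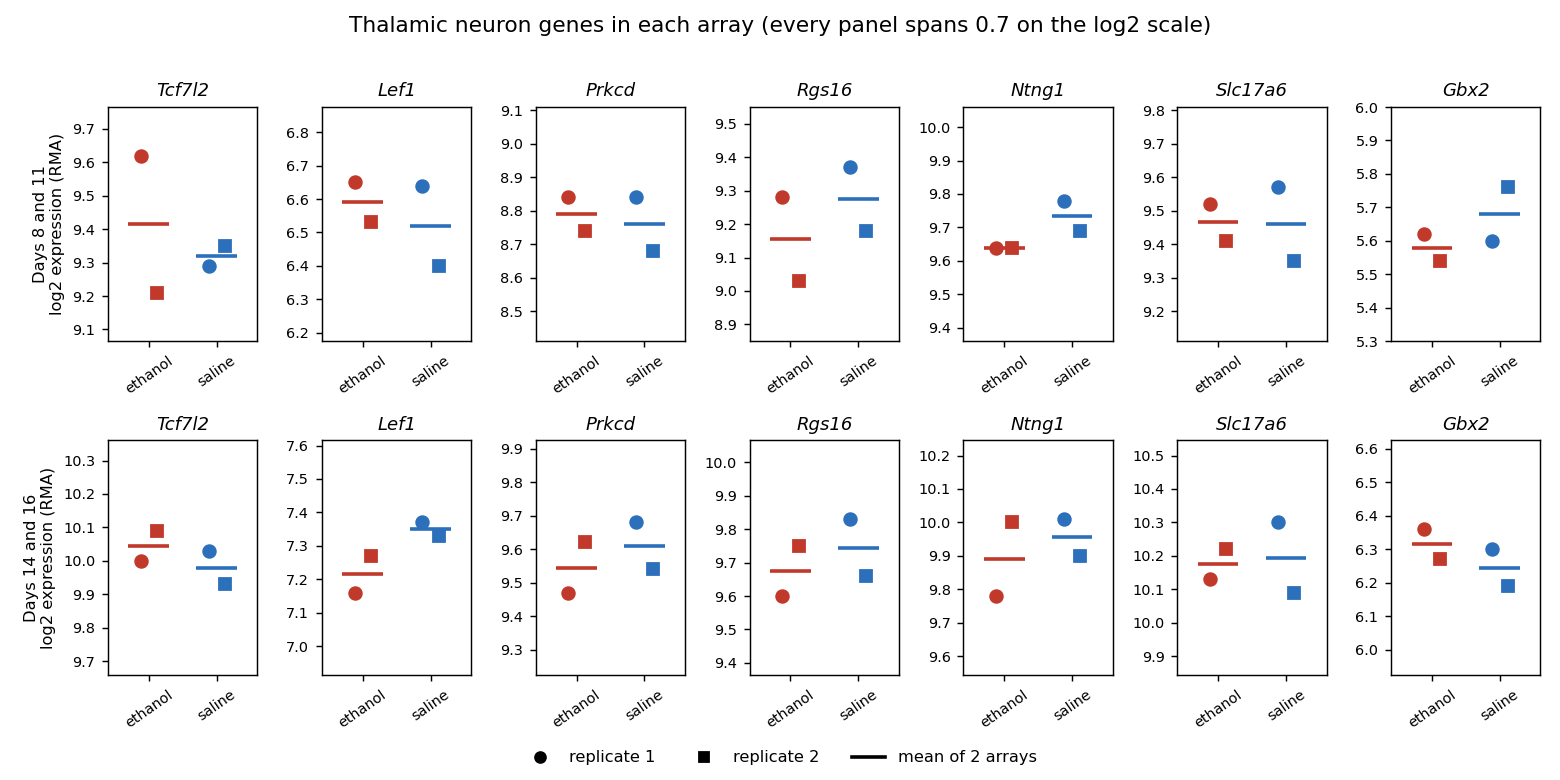
Log2 expression of the 7 genes in every array, with ethanol left of saline, days 8 and 11 in the upper row and days 14 and 16 in the lower row; circles are replicate 1, squares replicate 2 and bars the mean of 2 arrays. The ranges of ethanol and saline overlap in all panels except early Ntng1 (9.64 in both ethanol arrays, against 9.78 and 9.69) and late Lef1 (7.16 and 7.27, against 7.37 and 7.33).

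The second comparison asked the same of ethanol on days 14 and 16. Again no member passed the test by limma (adjusted p = 1 for all 7), and none passed the study's thresholds, which 1.16% of all probe sets passed. The difference was positive for 2 genes and negative for 5, with a median of -0.06, against -0.0067 over all probe sets, 52.7% of which were lower after ethanol. Without the lowest 50% of probe sets by mean level, 73.0% were lower and the median was -0.052, near that of the 7 genes. The median of the 7 genes was 0.027 without the first late ethanol array and 0.020 without the first late saline array, so that its sign rests on single arrays. The groups overlapped for 6 of 7 genes and were apart for 1 of 7, against 28.4% of all probe sets. The difference exceeded the larger replicate gap for that gene only, against 16.7% of all probe sets, and no interval lay wholly inside 1.2-fold.

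Tcf7l2 was far tighter in the late arrays. It read 10.00 and 10.09 after ethanol and 10.03 and 9.93 after saline, a difference of 0.06 (interval -0.23 to 0.36). Lef1 read 7.16 and 7.27 after ethanol and 7.37 and 7.33 after saline. It was the only late member in which both ethanol arrays lay below both saline arrays, as did 15.7% of all probe sets, and it had the smallest late p (difference -0.14, SE 0.10, interval -0.37 to 0.09, unadjusted p = 0.203), but it lay at background. Gbx2, also at background, read 6.36 and 6.27 after ethanol and 6.30 and 6.19 after saline, a difference of 0.07 (interval -0.14 to 0.28).

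Each of the other 4 genes had a late ethanol difference of at most 0.07 in size. Prkcd read 9.47 and 9.62 after ethanol and 9.68 and 9.54 after saline (difference -0.06, interval -0.29 to 0.16), and Rgs16 read 9.60 and 9.75 after ethanol and 9.83 and 9.66 after saline (difference -0.07, interval -0.34 to 0.21). In both genes the first ethanol array was the lowest of the 4 and the first saline array the highest. Ntng1 read 9.78 and 10.00 after ethanol and 10.01 and 9.90 after saline, so that the separation seen in the early arrays was not present (difference -0.06, interval -0.28 to 0.16). Its second probe set read 7.54 and 7.62 after ethanol and 7.64 and 7.36 after saline, with a higher ethanol mean (7.58 against 7.50). Slc17a6 read 10.13 and 10.22 after ethanol and 10.30 and 10.09 after saline, with the ethanol pair once more between the saline values (difference -0.02, interval -0.27 to 0.23).

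**Figure D2:**
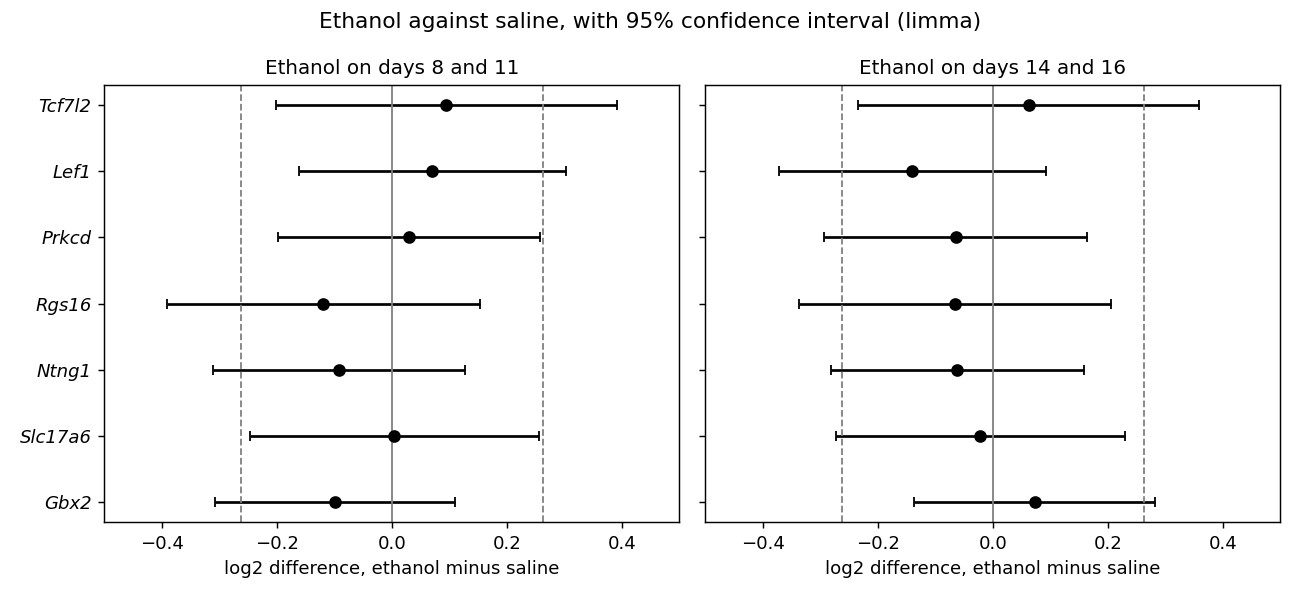
Ethanol minus saline on the log2 scale for each gene (points) with the 95% confidence interval from limma (bars), early exposure on the left and late exposure on the right; the dashed lines mark 1.2-fold in either direction. Every interval holds 0, and those of early Prkcd (-0.20 to 0.26) and early Slc17a6 (-0.25 to 0.26) lie between the dashed lines.

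The timings were compared through the interaction of treatment and timing. No member passed the test of the early against the late difference (adjusted p = 0.9996 for all 7 by limma). Applied here to this difference, the study's thresholds were passed by 0 of 7, against 1.99% of all probe sets (2.06% at an unadjusted p under 0.05). The early difference was the lower one for 3 of 7 genes, against 55.2% of all probe sets and 41.0% without the lowest 50% of them. The early minus late difference was 0.21 for Lef1 (interval -0.12 to 0.54, unadjusted p = 0.179) and -0.17 for Gbx2 (interval -0.47 to 0.12, unadjusted p = 0.220), the 2 genes nearest to background. For the other 5 genes it lay between -0.05 and 0.09. Without the first early saline array, that of Lef1 was 0.33 and passed the study's thresholds.

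Averaged over the 7 genes, the 2 arrays of a group lay further apart than ethanol and saline did. From each value the gene's 4-array mean in that timing was subtracted, and the result was averaged over the 7 genes. In the early arrays this mean deviation was 0.069 and -0.085 after ethanol, against 0.057 and -0.041 after saline. In the late arrays it was -0.067 and 0.036 after ethanol, against 0.078 and -0.046 after saline. Within each of the 4 groups the deviations thus had opposite signs in the 2 arrays. In the early arrays 5 and 0 of the 7 genes lay above their own mean after ethanol, against 5 and 2 after saline, and in the late arrays 1 and 5 did after ethanol, against 7 and 1 after saline. Replicate numbers are names without an order, but they show how the pools split: replicate 1 was the higher one for 7 of 7 genes in early ethanol (54.8% of all probe sets), 5 of 7 in early saline (54.2%), 1 of 7 in late ethanol (52.5%) and 7 of 7 in late saline (67.3%).

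**Figure D3:**
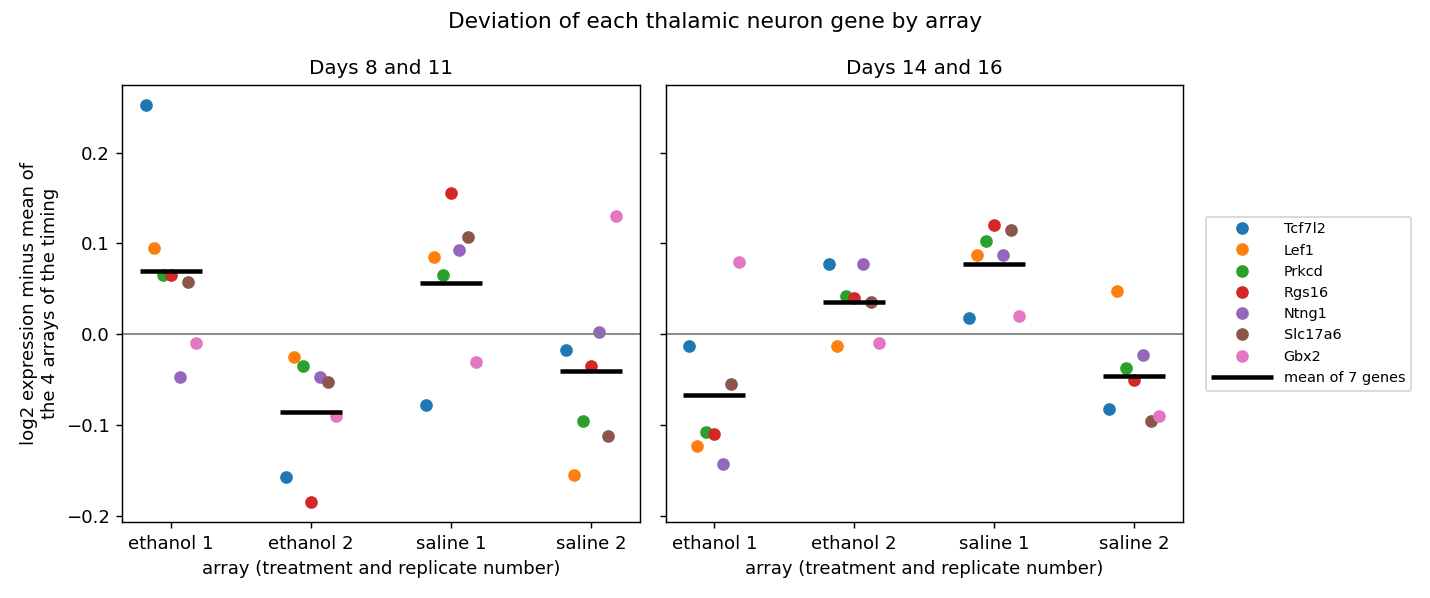
Deviation of each gene from its 4-array mean in the same timing (log2 scale) in every array, with ethanol arrays left of saline arrays; black bars are the mean of the 7 genes. The bars of the 2 arrays of a group lie on opposite sides of 0 in each group, for example at 0.069 and -0.085 in early ethanol.

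The background probe sets moved opposite to the members in early saline and in both late groups. They were alike in the 2 arrays of early ethanol, where the members split most. The median deviation of the receptor probe sets was -0.0087 and -0.0085 in the early ethanol arrays, against -0.035 and 0.048 in the early saline arrays, and 0.16 and -0.12 in the late ethanol arrays, against -0.052 and 0.010 in the late saline arrays. Its correlation with the mean deviation of the 7 genes was -0.62 over the 8 arrays, -0.48 over the early and -0.80 over the late arrays. These points share the normalization of each array, and the part of background in the members' movement was not tested.

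The pattern was carried by some members more than others. Over the 8 arrays, centred within each timing, Prkcd and Slc17a6 had a Pearson correlation of 0.92, Lef1 and Prkcd of 0.88 and Rgs16 and Slc17a6 of 0.83. Tcf7l2 and Ntng1 had a correlation of 0.0079, and Gbx2 ran against Lef1 with -0.63. These values describe 8 arrays that share normalization, and pairs of genes share the same arrays.

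Many other genes followed the same array pattern. Among 10994 probe sets of 1 symbol above background in both timings, the median correlation with the mean of the 7 genes was 0.53, and the 5th and 95th percentiles were -0.40 and 0.89. Of the members in that set, Rgs16 reached 0.94, Slc17a6 0.90, Prkcd 0.90, Ntng1 0.70 and Tcf7l2 0.61, although each is itself part of the mean. The highest values among other genes belonged to 2310057M21Rik (0.994), Alas1 (0.988), Wdr37 (0.988), Sergef (0.986) and Rbm4b (0.984), none of them on the thalamic lists. Alas1, which encodes the first enzyme of heme synthesis, read 9.22 and 9.03 after early ethanol, against 9.22 and 9.05 after early saline, and 9.25 and 9.38 after late ethanol, against 9.42 and 9.25 after late saline. The most opposed genes were Sall3 (-0.956), Aim2 (-0.953) and Lce1b (-0.949). Aim2, a sensor of cytosolic DNA in innate immune cells, read 7.42 and 7.77 after early ethanol, against 7.45 and 7.74 after early saline, and 7.98 and 7.88 after late ethanol, against 7.65 and 8.03 after late saline.

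A wider list of thalamic genes gave a similar picture. All 16 of its genes were measured, 14 of them above background in the early and 11 in the late arrays. After early ethanol the difference was positive for 5 and negative for 11 (median -0.026), after late ethanol positive for 7 and negative for 9 (median -0.039), and 0 of 16 passed the study's thresholds at either timing. The early differences with the smallest p were those of Ramp3 (-0.11), a partner of calcitonin-family receptors, and Shox2 (-0.08), a homeobox factor whose probe set lay at background. Ramp3 read 7.43 and 7.39 after early ethanol, against 7.60 and 7.42 after saline. The late ones were Plekhg1 (-0.18) and the LIM-homeobox gene Lhx9 (0.18). Lhx9, at background, read 7.31 and 7.29 after late ethanol, against 7.28 and 6.97 after saline.

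The habenula borders the thalamus and also depends on Tcf7l2. Of 7 habenula genes, 2 had positive and 5 negative differences after early ethanol (median -0.080), and 5 had positive and 2 negative ones after late ethanol (median 0.06), with 0 past the study's thresholds at either timing. Gpr151, an orphan receptor of habenular neurons, read 6.23 and 6.29 after early ethanol, against 6.37 and 6.45 after saline, and 6.96 and 6.88 after late ethanol, against 6.84 and 6.78 after saline. The groups did not overlap at either timing, but the probe set lay at background in all 8 arrays. Its differences were -0.15 and 0.11, and their difference of -0.26 had an unadjusted p of 0.0486 (adjusted p = 0.9996 by limma). Chrna3 had an early difference of -0.10 and Chrnb4 a late one of 0.21, both genes of nicotinic receptor subunits.

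The thalamic reticular nucleus, whose neurons are inhibitory, was represented by 4 of 5 genes, Spp1 being not analysed here. After early ethanol 0 were positive and 4 negative (median -0.035), and after late ethanol 2 were positive and 2 negative (median 0.0049). The early differences of Six3 (-0.00038) and Isl1 (-0.0011) were close to 0, with both probe sets at background. Without the second early saline array 2 were positive and 2 negative. Meis2, a TALE homeobox gene that is also expressed in the striatum and olfactory bulb, passed the study's thresholds in the early arrays. It read 10.82 and 10.97 after ethanol, against 11.10 and 11.29 after saline, without overlap (difference -0.30, SE 0.094, unadjusted p = 0.0119, adjusted p = 1 by limma). With 1 array left out the difference was -0.39 to -0.21, where 1.2-fold is 0.26. The early minus late difference of Meis2 was -0.33 (unadjusted p = 0.0386, adjusted p = 0.9996 by limma). It passed the study's thresholds as applied here to the difference between timings, as did 1.99% of all probe sets. In the same early arrays 8 of 8 genes of the olfactory bulb list had negative differences (median -0.53), against 59.8% of all probe sets. Of the 8 genes, 7 passed the study's thresholds, against 0.923% of all probe sets, with Cdhr1 at -0.83 and Omp at -0.66. Omp marks olfactory sensory neurons rather than bulb neurons. With 1 array left out, the list median was -0.69 to -0.36. Cdhr1 read 6.27 and 7.12 after early ethanol, and its difference was -1.25 to -0.40 with 1 array left out. The mean level of that list lay between 7.31 and 7.61 in the ethanol arrays, against 7.90 and 8.07 in the saline arrays, and its part in the value of Meis2 was not tested.

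Paralogs and partners of the 7 genes formed 1 list, of other TCF, PKC, RGS and vesicular glutamate transporter genes, Gbx1, β-catenin and netrin-G ligands. Over the 18 genes analysed here, the early difference was positive for 5 and negative for 13 (median -0.018), the late one positive for 8 and negative for 10 (median -0.024), and 0 passed the study's thresholds at either timing. Prkca and Prkch, of the same kinase family as Prkcd, had early differences of -0.21 (unadjusted p = 0.0507 by limma) and -0.20. Prkca read 10.31 and 10.50 after early ethanol, against 10.65 and 10.58 after saline. In the late arrays, Gbx1 (0.19) lay at background and Prkce had a difference of -0.12, reading 10.58 and 10.59 after ethanol, against 10.71 and 10.70 after saline.

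All 38 genes of a Wnt pathway list were measured, 27 of them above background in the early and 23 in the late arrays. The list joins activators and inhibitors, so its signs give no direction of pathway activity. After early ethanol 8 had positive and 30 negative differences (median -0.055), and after late ethanol 15 positive and 23 negative ones (median -0.026). Over all probe sets 59.8% and 52.7% were negative, and without the lowest 50% of them 59.0% and 73.0% were. With 1 array left out, 21 to 32 of the 38 genes were negative early and 16 to 25 late. Fzd1, a Wnt receptor, was the only one past the study's thresholds, in the early arrays. It read 7.51 and 7.31 after ethanol, against 7.82 and 7.56 after saline (difference -0.28, SE 0.11, unadjusted p = 0.0311, adjusted p = 1 by limma). With 1 array left out the difference was -0.41 to -0.15 (1.2-fold is 0.26), so its size rests on single arrays.

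Markers of the other cell types that use these genes were read beside them. Of 8 endothelial genes, the cells in which Lef1 is also expressed, 1 had a positive and 7 a negative difference after early ethanol (median -0.14, with Tek at -0.21 and Cldn5 at -0.19), and 0 and 8 after late ethanol (median -0.16, with Slc2a1 at -0.26 and Flt1 at -0.20). Over all probe sets 59.8% were negative early and 52.7% late, and without the lowest 50% of them 59.0% early and 73.0% late. With 1 array left out, 6 to 8 of the endothelial genes were negative early (medians -0.14 to -0.099) and 5 to 8 late (medians -0.22 to -0.099). None passed the study's thresholds at either timing. Their mean level was 7.99 to 8.03 in the ethanol arrays, against 8.12 to 8.14 in the saline arrays of the early exposure, and 8.59 to 8.68 in the ethanol arrays, against 8.71 to 8.85 in the saline arrays of the late exposure. Lef1 had a positive early difference (0.07) and a negative late one (-0.14), and the part of endothelial RNA in these values was not tested.

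Of 7 oligodendrocyte genes measured, in whose lineage Tcf7l2 is expressed, 6 had positive and 1 negative differences after early ethanol (median 0.13, with Mobp at 0.23 and Mbp at 0.22) and 1 had a positive and 6 negative ones after late ethanol (median -0.12, with Mog at -0.17 and Cnp at -0.13). None passed the study's thresholds at either timing. Among all probe sets 59.8% were negative early and 52.7% late, or 73.0% late without the lowest 50% of them. The early median of the oligodendrocyte genes was near 0 (-0.00050) without the second early saline array. Their mean level was 10.71 to 10.85 in the early ethanol arrays, against 10.56 to 10.76 in the early saline arrays, and 11.20 to 11.29 in the late ethanol arrays, against 11.31 to 11.38 in the late saline arrays. Tcf7l2 had a positive difference at both timings (0.09 and 0.06), and the part of oligodendrocyte RNA was not tested.

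Cerebellar genes covered several neuron types, among them the Purkinje cells that also express Prkcd. Their median difference was 0.011 after early ethanol and -0.32 after late ethanol. The Purkinje genes Pcp2, Car8 and Calb1, named after their values were seen, had overlapping late groups. They averaged 9.56, 11.60 and 12.27 after late ethanol, against 9.75, 11.77 and 12.30 after late saline. In the late arrays 8 of 8 cerebellar genes were negative, against 52.7% of all probe sets and 73.0% without the lowest 50% of them. The largest differences were those of Gabra6 (-0.39, not past the study's thresholds) and Zic2 (-0.38), which passed them together with Cbln1 and Eomes, 2 genes named after their values were seen. Much of this came from the first late ethanol array, without which the median was -0.083, with 8 of 8 still negative. Without it the differences were -0.064 for Gabra6, -0.25 for Zic2, -0.16 for Cbln1 and -0.23 for Eomes. The mean level of the list was 10.29 to 10.61 in the late ethanol arrays, against 10.71 to 10.73 in the late saline arrays. Beside this, Prkcd had a late difference of -0.06, and the part of cerebellar RNA in it was not tested. Genes of the midbrain and hindbrain, where Slc17a6 is also used, had medians of -0.0060 after early and -0.046 after late ethanol, and 1 of them passed the study's thresholds, Tph2 after early ethanol (0.33, unadjusted p = 0.0102, adjusted p = 1 by limma). Tph2 read 6.89 and 6.66 after early ethanol, against 6.42 and 6.47 after early saline, where background was 6.48. For the other 6 lists (neurons of the cortex, striatum and hypothalamus, astrocytes, microglia and choroid plexus) the medians lay between -0.028 and 0.0068 after early and between -0.076 and 0.0078 after late ethanol. The study's thresholds were passed there by 1 gene after early ethanol (Fezf2 of the cortex, -0.29, unadjusted p = 0.0149, adjusted p = 1 by limma) and by 1 after late ethanol (Otx2 of the choroid plexus, -0.29, unadjusted p = 0.0249, adjusted p = 1 by limma). The same thresholds were passed by 0.923% of all probe sets early and 1.16% late. Tph2, Fezf2 and Otx2 were named after their values were seen. With 1 array of the timing left out, Tph2 ranged from 0.21 to 0.44, Fezf2 from -0.35 to -0.22 and Otx2 from -0.44 to -0.14.

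**Figure D4:**
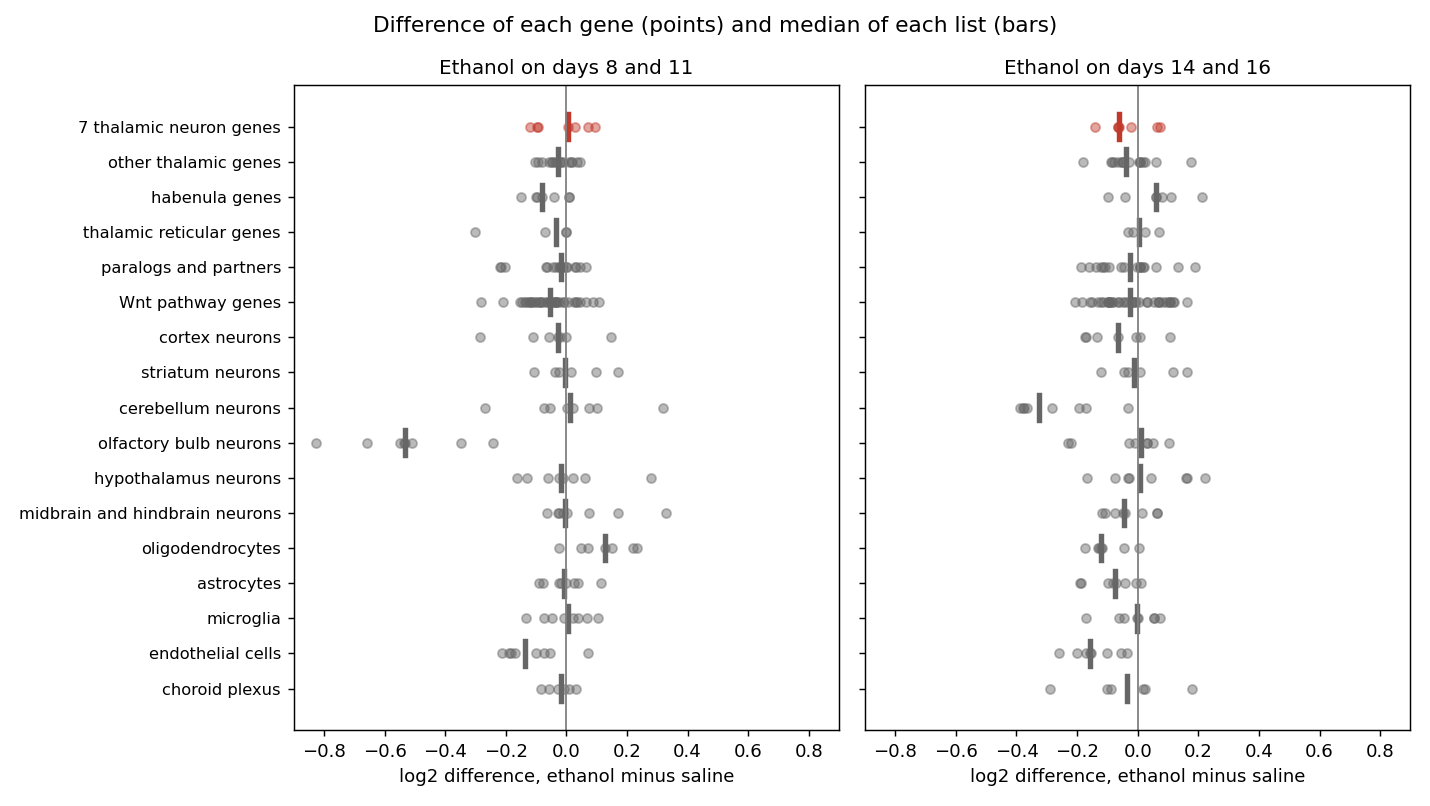
Log2 difference, ethanol minus saline, of each gene (points) and the median of each list (vertical bars) for the 7 thalamic neuron genes (red) and 16 other lists (grey), early exposure on the left and late exposure on the right. The 7 genes (medians 0.0042 and -0.06) and the 16 other thalamic genes (-0.026 and -0.039) lie near 0. The olfactory bulb list, which holds Omp, lies apart in the early exposure (-0.53, or -0.36 without the first early ethanol array). Cerebellar genes lie apart in the late exposure (-0.32, or -0.083 without the first late ethanol array).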

How the data were processed

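The deposited values were used as they stand. The authors scanned the arrays with Affymetrix Command Console. In Partek Genomics Suite (6.6 in the submitters' notes, another version in the paper's methods) they made RMA values with quantile normalization and GC adjustment on the log2 scale. The methods describe the early arrays, and the late arrays are taken to have been treated alike. The genome build of the annotation is not given in the sources used here. The table held 35556 probe sets. Those with a symbol, 23410 in number (1621 of them with several), were tested, and the 12146 others were not.

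Differences, standard errors and intervals came from limma 3.58.1 under R 4.3.3. A single model with 4 group means was fitted to all 8 arrays, with Benjamini-Hochberg adjustment over the 23410 probe sets. The study's unadjusted thresholds were used as a further count. The fit was tested on simulated data. The number of arrays (2 a group) limits the precision. Arrays of a timing correlated at 0.993 or above, and at most 6 probe sets had equal values in 2 arrays, so all were kept as separate samples.

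The 7 genes and the 16 other lists were chosen with earlier results of these data known. Named besides the 7 genes were, per thalamic, habenula, reticular, paralog or Wnt list and timing, genes past the study's thresholds (at most 4) or else the 2 with the smallest p, the 5 genes most like and 3 least like the members' mean, and the 2 genes of largest difference in cell type lists with a median past 0.1. Promoters came from RefSeq. Alternatives were other normalizations, filters, variance models, probe set rules, a replicate block, tests on 4 arrays and leaving out each array. Plots were made in Python 3.11.15 with matplotlib 3.10.9.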

Additional observations from a re-analysis of the deposited data

How the results depend on the processing

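Of 418 values of single genes under 21 alternatives, 382 kept their direction and 36 did not, and 0 reached an adjusted p under 0.05 (smallest 0.651). Centring on the median gave early Slc17a6 -0.0060. Quantile normalization over all arrays gave late Slc17a6 0.031, and -0.020 for Tcf7l2 and -0.013 for Slc17a6 in early minus late. Cyclic loess gave Slc17a6 0.030 late and -0.00082 in early minus late. The mean of both probe sets gave late Ntng1 0.0087. The cause was not tested.

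Leaving out 1 array at a time gave early ranges of -0.11 to 0.30 for Tcf7l2, -0.051 to 0.19 for Lef1, -0.053 to 0.11 for Prkcd, -0.25 to 0.0068 for Rgs16 and -0.11 to 0.11 for Slc17a6. Late ranges were -0.14 to 0.013 for Prkcd, -0.15 to 0.020 for Rgs16, -0.17 to 0.047 for Ntng1 and -0.13 to 0.081 for Slc17a6. Early minus late ranges were -0.17 to 0.24 for Tcf7l2, -0.18 to 0.073 for Rgs16, -0.14 to 0.078 for Ntng1 and -0.084 to 0.14 for Slc17a6. The early median of the 7 genes ranged from -0.097 (without the first ethanol array) to 0.062, the late median from -0.14 to 0.027 (-0.083 to -0.0075 under other settings), the early minus late median from -0.077 to 0.082, and the members past the study's thresholds from 0 to 1 early (1 without the second early ethanol array) and from 0 to 1 in early minus late (1 without the first early saline array). A lone array was given the spread of the other groups. Early Ntng1 and Gbx2, and late Tcf7l2, Lef1 and Gbx2, kept their direction in every alternative that gave a value, but not their size: leaving out 1 array gave -0.14 to -0.046 and -0.18 to -0.021 for the early genes and 0.015 to 0.11, -0.19 to -0.086 and 0.015 to 0.13 for the late ones, in that order. Leaving out 1 array, added for the lists after seeing the data, gave medians of -0.059 to 0.0060 early and -0.089 to 0.027 late for the other thalamic genes.

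Over all probe sets, 216 early and 272 late passed the study's thresholds, against 60 and 58 with an unmoderated test and 669 and 674 with every probe set. Early minus late gave 465, against 854 with every probe set and 213 without the lowest 50% of probe sets. Leaving out 1 array gave up to 781 early (without the second saline array), 1750 late and 1284 in early minus late (both without the second late ethanol array). Same-numbered arrays shared deviations with a correlation of 0.466 early and -0.464 late, and with 2 pairs a timing the numbers were not taken to pair the pools. A replicate block gave 229, 354 and 582, and a block with late numbers crossed, added after seeing the data, 564, 519 and 1099, and neither called a member. Filters at 25% and 50% removed Gbx2, and the second also removed Lef1. The precision of 2 pools a group left a 1.2-fold change inside the interval for 5 of 7 genes early and 7 of 7 late.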
